A study of Homo sapiens with 38 samples.

Results

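Gene expression at 24 h was compared between A549 cells exposed to 6.0 μg/cm2 and A549 cells exposed to 3.0 μg/cm2 of fumed silica (SiO2) nanoparticles (NPs). The arrays were chosen by the dose and the time in their source names, 3 arrays at 6.0 μg/cm2 and 3 arrays at 3.0 μg/cm2, which are 6 of the 38 arrays of the series. No control array entered the contrast, which sets the higher dose against the lower one. A549 is an established human lung carcinoma line that is widely used as a model of the alveolar epithelium. It was cultured without genetic modification and exposed in serum-free medium. The labels number the replicates as biological, and the protocol speaks of separate cultures of this single line. For each array, total RNA of a whole culture was labeled with a single dye, Cy3, so that more RNA per cell and more cells with the RNA cannot be told apart. Levels in 3 arrays of unexposed A549 cells, kept for 24 h in serum-free medium and hybridised on the same slides, are given for reference. The same doses at 72 h, with 3 arrays each, are used as a second time point. Their source names give 72 h and their descriptions 24 h, and the source names were followed.

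A549 cells respond to particles with the secretion of cytokines and chemokines, the messengers that recruit and activate leukocytes. Many of these genes are controlled by NF-kB, a family of transcription factors that is held in the cytoplasm by inhibitory proteins and induces several of those inhibitors as feedback. Damaged proteins activate a different factor, HSF1, which binds heat shock elements in the promoters of chaperone genes. A549 cells also express genes of secreted plasma proteins that are best known from the liver, such as the fibrinogen chains.

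The 75th percentile of the processed signal lay between 991 and 1165 on the 6 arrays, an array had 65.1% to 67.3% of its probes well above background, and no spot was saturated. Each level below is a percent of the 75th percentile of its own array, and each difference is a log2 difference, 6.0 minus 3.0 μg/cm2. Arrays of the same group, control cells included, correlated at 0.9968 to 0.9981. All 6 general epithelium markers, such as EPCAM and the keratins, were well above background on every array and none was modulated. Of the alveolar type 2 markers, 6 of 8 were well above background on all 6 arrays, and SFTPA1 and SFTPB, which code for surfactant proteins, on none. Of the alveolar type 1 markers 5 of 6 were well above it on all 6 arrays, and of the leukocyte markers 4 of 7. The endothelial and fibroblast markers were mostly not above background, with 1 of 6 and 2 of 6 well above it. On each of the 3 slides, the culture at 3.0 μg/cm2 lay at array position 2 and the culture at 6.0 μg/cm2 at position 3, so that dose and array position cannot be told apart within this contrast.

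A transcript was called modulated at a limma p under 0.05 after Benjamini-Hochberg adjustment together with a change of 1.5-fold or more. Of 22141 transcripts tested, 363 (1.64%) were modulated between the doses, 154 of them higher and 209 lower at 6.0 μg/cm2. On all 363 the arrays of both doses did not overlap and the difference had the same sign on each of the 3 slides, while 33.17% of all transcripts tested did not overlap. With 1 probe per gene, 127 of 14429 genes were higher (0.88%) and 146 were lower (1.01%), and the median difference over all genes was −0.02. Of all genes tested 1.89% were modulated and 44.1% were positive, the shares to set beside the counts of each gene list below. Most changes were small, with 312 transcripts between 1.5-fold and 2-fold, 48 between 2-fold and 4-fold, and 3 above 4-fold. These 3 were IL24, HSPA6 and CSF3, of which CSF3 was not well above background at 3.0 μg/cm2. The share of higher transcripts, 42.4%, depended on the scaling and was 53.7% with quantile normalization, 54.1% with the array median and 68.1% with spike-in scaling, which moved the median of all transcripts from −0.03 to 0.09. Leaving out 3.0 μg/cm2 replicate 2 gave 230 modulated transcripts and 406 were called without 6.0 μg/cm2 replicate 2, the lowest and the highest counts without an array.

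**Figure D1:**
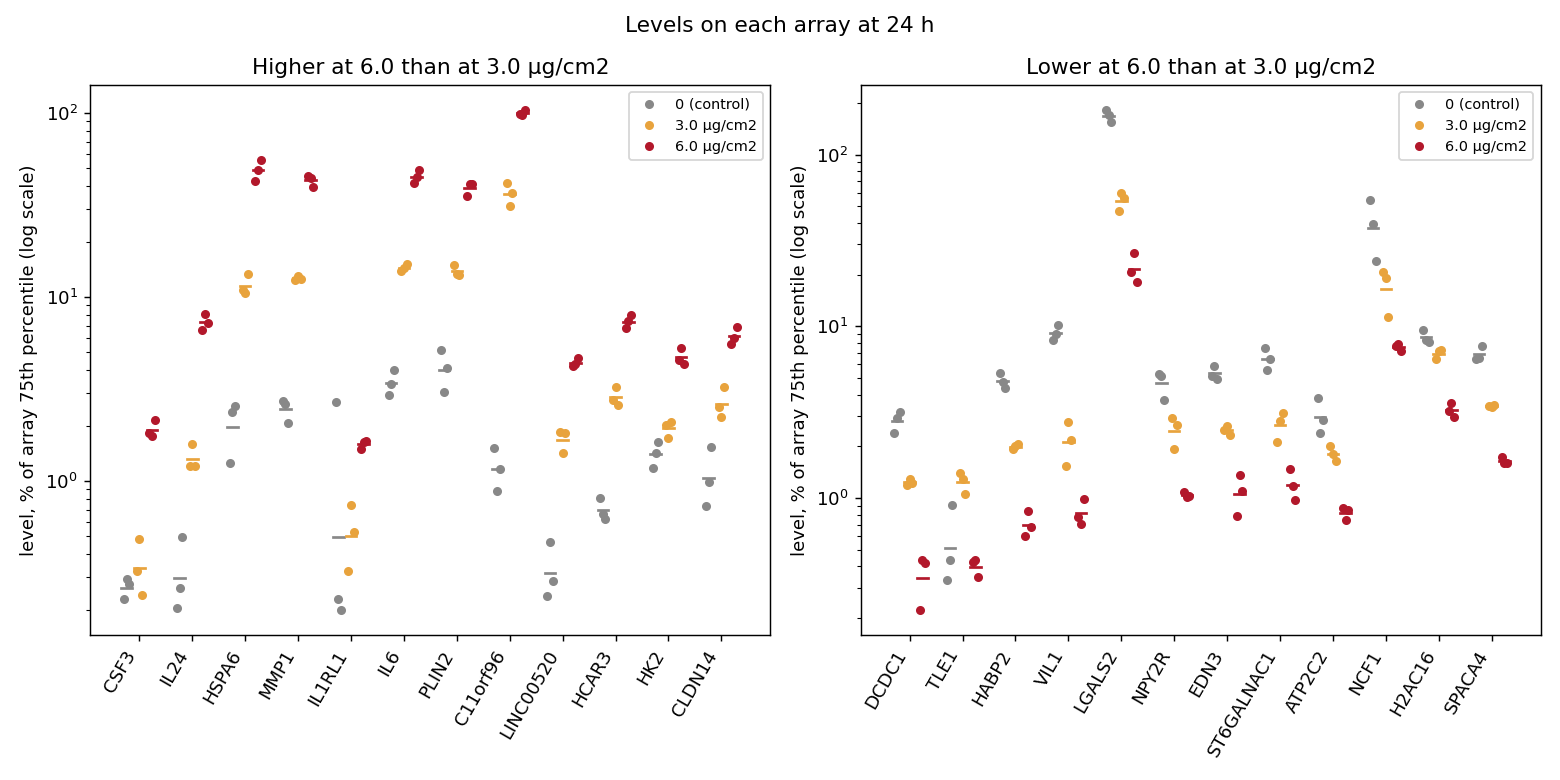
Levels of the 12 higher (left) and 12 lower (right) genes with the largest differences, as a percent of the 75th percentile of each array on a log scale. Each point is an array, gray for control cells, orange for 3.0 μg/cm2 and red for 6.0 μg/cm2, and each bar is the geometric mean of 3 arrays. For most genes the arrays at 3.0 μg/cm2 lie between those of control cells and those at 6.0 μg/cm2.

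Inflammatory messengers held several of the largest increases. IL6, the central cytokine of the acute phase response (probe A_23_P71037), had levels of 13.8%, 14.3% and 15.1% at 3.0 μg/cm2 and of 41.9%, 45.1% and 48.8% at 6.0 μg/cm2. Every array at 6.0 μg/cm2 lay far above every array at 3.0 μg/cm2, and control cells had 2.92% to 4.02%. The difference was 1.65 (SE 0.0718, 95% confidence interval 1.48 to 1.82, limma adjusted p = 0.00154). IL24, a cytokine of the IL10 family, had levels of 1.21%, 1.58% and 1.20% at 3.0 μg/cm2 and of 6.64%, 8.13% and 7.20% at 6.0 μg/cm2. It rose by 2.47 (SE 0.128, limma adjusted p = 0.00224), and its other tested probe, not well above background at 3.0 μg/cm2, was at least 1.69-fold higher. CSF3, the growth factor of neutrophil granulocytes, had levels of 0.326%, 0.482% and 0.241% at 3.0 μg/cm2 and of 1.83%, 1.75% and 2.14% at 6.0 μg/cm2. It was well above background on all arrays at 6.0 μg/cm2 and on none at 3.0 μg/cm2 or in control cells. It was therefore at least 2.1-fold higher, and it entered the test only through the arrays at 6.0 μg/cm2. Its limma adjusted p = 0.00476 is that of the fitted difference and does not test the bound, as for each bound below. IL1RL1, the receptor of the alarmin IL33, was likewise not well above background at 3.0 μg/cm2 (0.323%, 0.745% and 0.530%) and was at least 1.76-fold higher at 6.0 μg/cm2 (1.50%, 1.63% and 1.66%, limma adjusted p = 0.0194). One control culture, replicate 1, had a level of 2.69% for IL1RL1, above every exposed array. The call of IL1RL1 was lost in 4 of the 6 fits that left out an array, those without 3.0 μg/cm2 replicate 3 and without each of the 6.0 μg/cm2 replicates, with an adjusted p of up to 0.0699.

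Stretches of RefSeq promoters (assembly GRCh38.p14) are shown for 3 of the genes with the largest increases because a motif searched there was found in them. The promoter of IL6, on chromosome 7, held a match to the kB consensus, the site of NF-kB, which is in capitals in the stretch chr7:22727097-22727166 on the plus strand.
IL6: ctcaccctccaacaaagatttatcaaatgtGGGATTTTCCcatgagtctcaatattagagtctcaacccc
The promoter of HSPA6, on chromosome 1, held 2 matches to the heat shock element core GAANNTTC, in capitals in the stretch chr1:161524330-161524508 on the plus strand.
HSPA6: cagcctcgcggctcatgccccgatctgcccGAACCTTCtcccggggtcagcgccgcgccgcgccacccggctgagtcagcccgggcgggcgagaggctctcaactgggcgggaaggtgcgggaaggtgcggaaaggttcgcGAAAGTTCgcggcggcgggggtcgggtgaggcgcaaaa
The promoter of IL1RL1, on chromosome 2, held a match to the AP-1 motif TGANTCA, in capitals in the stretch chr2:102337036-102337102 on the plus strand.
IL1RL1: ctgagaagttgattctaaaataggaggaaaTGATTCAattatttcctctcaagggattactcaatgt
Promoters were listed for 7 of the 12 genes with the largest increases and for 8 of the 12 with the largest decreases, and both strands were searched. Of these 7, the kB consensus was in 1, the heat shock element core in 1 and the AP-1 motif in 2, HSPA6 and IL1RL1. Of the 8, none held any of these motifs. Among all 35116 promoters, 9.08% held the kB consensus, 6.77% the heat shock element core and 7.71% the AP-1 motif. The C/EBP-ATF motif TGATGNAA, in 3.62% of all promoters, was in none of the 15. A match is a description of letters in the promoter and was not measured here as a bound site.

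Among 23 inflammatory cytokines and growth factors tested, 5 rose and 0 fell, and their median difference was 0.31 against −0.02 over all genes. Beside CSF3, IL24 and IL6, the list rose in INHBA, the activin A subunit (1.17, limma adjusted p = 0.00561), and in EREG, a ligand of the EGF receptor (0.71, limma adjusted p = 0.0101). EREG had levels of 241%, 235% and 212% at 3.0 μg/cm2 and of 411%, 385% and 333% at 6.0 μg/cm2. TNF, with a difference of 1.04, overlapped between the doses and did not pass the test (limma adjusted p = 0.184), and neither did CSF2 (limma adjusted p = 0.0707), which was not well above background at 3.0 μg/cm2. Among 11 chemokines tested, 3 rose and 0 fell, with a median of 0.29. CCL20, which attracts CCR6-bearing dendritic cells and lymphocytes, had levels of 6.40%, 7.46% and 7.13% at 3.0 μg/cm2 and of 13.1%, 12.3% and 14.1% at 6.0 μg/cm2, a difference of 0.91 (SE 0.0792, limma adjusted p = 0.00397). CCL5, which attracts T cells and monocytes, differed by 1.15 (SE 0.226, limma adjusted p = 0.0302), with 1.37% to 2.28% at 3.0 μg/cm2 and 3.18% to 5.02% at 6.0 μg/cm2. CXCL8, the main neutrophil chemokine, differed by 0.60 (SE 0.107, limma adjusted p = 0.0228). The calls of CCL5 and CXCL8 were the less stable ones. That of CCL5 was lost with the replicate block (adjusted p = 0.0546) and without replicate 2 or replicate 3 of either dose. That of CXCL8 was lost in each fit that left out an array except the fit without 3.0 μg/cm2 replicate 2, and over the 6 fits its difference lay between 0.48 and 0.69. Of 15 inflammatory effectors that the study names for its array response, all 15 had a positive difference and 6 rose. These were named from the study, which chose them on these same arrays.

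The NF-kB subunits and feedback inhibitors were all positive, 18 of 18 genes tested, with a median of 0.28, while 44.1% of all genes tested were positive. This held under every scaling and background correction tried. The other scalings and normexp background correction moved the median of all transcripts upward, and an upward shift cannot turn a positive difference negative. Their result on the sign was thus partly fixed in advance, and the list was chosen with earlier results of these data known. Most of the 18 differences were under the fold change threshold, and 2 genes passed it. TNFAIP3, the deubiquitinase A20 that shuts off NF-kB signalling, had levels of 10.8%, 10.2% and 12.4% at 3.0 μg/cm2 and of 18.6%, 19.8% and 21.3% at 6.0 μg/cm2, a difference of 0.84 (SE 0.0887, limma adjusted p = 0.00606). BIRC3, a ubiquitin ligase of TNF receptor complexes, rose by 0.61 (limma adjusted p = 0.00622). Its fold change dropped under 1.5 without 3.0 μg/cm2 replicate 3 or without 6.0 μg/cm2 replicate 1, where the difference was as low as 0.57. TRAF1, NFKB2 and NFKBIE had differences of 0.58, 0.56 and 0.46 with adjusted p of 0.0156, 0.0456 and 0.00636, under the fold change threshold. Among 23 NF-kB responsive effectors, 4 rose and 0 fell on their brightest probes, with a median of 0.21, and 5 had any modulated probe. SOD2, the mitochondrial superoxide dismutase, had levels of 570%, 565% and 590% at 3.0 μg/cm2 and of 926%, 971% and 1000% at 6.0 μg/cm2. The 3 arrays of each dose lay close together, and the difference was 0.75 (SE 0.0524, limma adjusted p = 0.00279). PTX3, a soluble pattern recognition molecule (0.77), TNFRSF9, a costimulatory receptor (0.76), and SAA2, an acute phase protein (0.71), rose by similar amounts. TNFRSF9 lost its call without 3.0 μg/cm2 replicate 1 or 2 (adjusted p of up to 0.0554). The probes of SAA2 and SAA1 may share signal, since the genes are near-identical, and SAA1 differed by 0.55 (limma adjusted p = 0.0146). ICAM1, the leukocyte adhesion molecule, differed by 0.57 (limma adjusted p = 0.0304), with 5.22% to 6.25% at 3.0 μg/cm2 and 7.68% to 9.81% at 6.0 μg/cm2, under the fold change threshold. Interferon-stimulated genes had 0 of 24 modulated and a median of 0.05.

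HSPA1A, HSPA1B, HSPA1L and DNAJB1 rose at 6.0 μg/cm2 from levels at 3.0 μg/cm2 that were close to those of control cells. HSPA6, CRYAB and HSPB8 were already above control cells at 3.0 μg/cm2. Of 30 heat shock proteins and co-chaperones tested, 7 rose and 0 fell, 27 were positive and the median was 0.20. HSPA6, the strictly inducible HSP70 (probe A_23_P114903), had levels of 10.9%, 10.5% and 13.4% at 3.0 μg/cm2 and of 42.6%, 49.0% and 55.8% at 6.0 μg/cm2, against 1.25% to 2.55% in control cells. It rose by 2.08 (SE 0.129, 95% confidence interval 1.77 to 2.39, limma adjusted p = 0.00243), and its other probe by 1.84. HSPA1A, the main inducible HSP70, had levels of 2480%, 2400% and 2320% at 3.0 μg/cm2 and of 4550%, 4370% and 4280% at 6.0 μg/cm2. Control cells had 1670%, 2310% and 2260%, and the highest of these lay just under the lowest array at 3.0 μg/cm2. The difference was 0.87 (SE 0.0525, limma adjusted p = 0.00224), and HSPA1B, whose sequence is near-identical, rose by 0.96. The probes of HSPA6 and its pseudogene copy HSPA7 may share signal as well.

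The 4 other heat shock genes rose by less. CRYAB and HSPB8, small heat shock proteins, rose by 0.72 and 0.66, and HSPA1L by 0.61. CRYAB had 15.1% to 17.2% at 3.0 μg/cm2 and 8.03% to 10.7% in control cells. HSPB8 had 24.1% to 28.2% at 3.0 μg/cm2 and 16.3% to 18% in control cells. DNAJB1, the HSP40 partner of HSP70, had levels of 162%, 150% and 177% at 3.0 μg/cm2 and of 239%, 234% and 264% at 6.0 μg/cm2, against 166%, 202% and 214% in control cells. Its difference of 0.59 (SE 0.0796, limma adjusted p = 0.0112) lost its call without 3.0 μg/cm2 replicate 2 or 6.0 μg/cm2 replicate 3. BAG3 and HSPA8 differed by 0.41 and 0.35, under the fold change threshold. The MAP kinase phosphatase DUSP16 had levels at 3.0 μg/cm2 that overlapped those of control cells. The immediate-early factor KLF2 was under every control culture at 3.0 μg/cm2, and its lowest level at 6.0 μg/cm2 was close to the highest control level. KLF2 had 131% on each array at 3.0 μg/cm2, 137% to 201% in control cells and 201% to 219% at 6.0 μg/cm2 (difference 0.68, limma adjusted p = 0.003). DUSP16 had 7.91% to 8.52% at 3.0 μg/cm2, 7.64% to 8.39% in control cells and 13.9% to 14.1% at 6.0 μg/cm2 (difference 0.76, limma adjusted p = 0.00253).

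The integrated stress response, in which phosphorylation of eIF2 favours translation of ATF4, had 4 of 26 genes higher, 0 lower and a median of 0.13. ATF3, a stress-induced factor of this pathway, had levels of 179%, 171% and 203% at 3.0 μg/cm2 and of 311%, 304% and 332% at 6.0 μg/cm2, a difference of 0.78 (SE 0.0783, limma adjusted p = 0.00558). Its dimmer probes disagreed, with differences of 0.82, 0.57 and 0.03, of which the first was modulated. DDIT3, the factor CHOP, and PPP1R15A, the phosphatase subunit GADD34, rose by 0.62 and 0.61, and CEBPB by 0.59. The fold change of PPP1R15A dropped under 1.5 without 3.0 μg/cm2 replicate 1 or 6.0 μg/cm2 replicate 3, and that of CEBPB without 3.0 μg/cm2 replicate 1 or 2 or 6.0 μg/cm2 replicate 3. The chaperones of the endoplasmic reticulum and the unfolded protein response had 0 of 25 modulated and a median of 0.09. The immediate-early factors had 3 of 23 higher, KLF2, MAFF (0.68) and FOSL1 (0.60, limma adjusted p = 0.0182). FOSL1 was no longer called without 3.0 μg/cm2 replicate 1 or 2 or 6.0 μg/cm2 replicate 2 or 3. The MAP kinase phosphatases had 2 of 17 higher, DUSP16 and DUSP5 (0.62). The fold change of DUSP5 dropped under 1.5 without 6.0 μg/cm2 replicate 3. No p53 target (0 of 25) was modulated. Of 24 apoptosis regulators HRK, a BH3-only promoter of apoptosis, was the 1 that rose on its brightest probe (4.17%), and 2 had any modulated probe. HRK had levels of 26.0%, 25.1% and 23.8% at 3.0 μg/cm2 and of 47.0%, 49.4% and 44.5% at 6.0 μg/cm2, against 7.14% to 8.30% in control cells (difference 0.91, SE 0.0616, limma adjusted p = 0.00279).

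MMP1, PLIN2, C11orf96 and HK2 were also among the largest increases. MMP1, interstitial collagenase (probe A_23_P1691), had levels of 12.4%, 13% and 12.6% at 3.0 μg/cm2 and of 45.6%, 44.5% and 39.4% at 6.0 μg/cm2, against 2.08% to 2.72% in control cells. It rose by 1.76 (SE 0.0679, limma adjusted p = 0.00138), and MMP10, a stromelysin, by 0.82, the 2 of 11 matrix metalloproteinases and inhibitors that were modulated. PLIN2, which coats lipid droplets, had levels of 15.0%, 13.4% and 13.2% at 3.0 μg/cm2 and of 35.4%, 41.3% and 40.9% at 6.0 μg/cm2. It rose by 1.50 (SE 0.0834, limma adjusted p = 0.00224) on this probe and by 0.82 on another. C11orf96, an uncharacterised gene, had levels of 41.7%, 31.1% and 36.6% at 3.0 μg/cm2 and of 98.3%, 97.5% and 104% at 6.0 μg/cm2, against 0.884% to 1.51% in control cells. The arrays did not overlap between any of the 3 groups, and the difference between the doses was 1.46 (SE 0.107, limma adjusted p = 0.00291). HK2, a hexokinase of the first step of glycolysis, had levels between 1.72% and 2.09% at 3.0 μg/cm2 and between 4.35% and 5.26% at 6.0 μg/cm2, and rose by 1.28 (limma adjusted p = 0.00321). CLDN14, a tight junction claudin, rose by 1.21, LINC00520, a long non-coding RNA, by 1.39, and HCAR3, a receptor of hydroxylated fatty acids, by 1.37. The probe of HCAR3 may share signal with the near-identical HCAR2.

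CD68, a lysosomal glycoprotein used as a macrophage marker, had levels of 68.2%, 68.6% and 72.6% at 3.0 μg/cm2 and of 132%, 142% and 145% at 6.0 μg/cm2. It rose by 1.00 (SE 0.059, limma adjusted p = 0.00224). The other leukocyte markers did not move with it. PTPRC, the pan-leukocyte CD45, differed by −0.31 and CD14 by −0.13 (limma adjusted p = 0.194 for both), and CD3E and CSF1R were not well above background on any of the 6 arrays. The summed level of the 7 leukocyte markers, in multiples of the 75th percentile, was 0.605 to 0.629 in control cells, 0.942 to 0.979 at 3.0 μg/cm2 and 1.55 to 1.70 at 6.0 μg/cm2. CD68 carried this increase, since the sum of the 6 other markers was 0.32 to 0.346 in control cells, 0.253 to 0.264 at 3.0 μg/cm2 and 0.233 to 0.253 at 6.0 μg/cm2. NPC1, which exports cholesterol from the lysosome, rose by 0.67 (limma adjusted p = 0.00662). It was the 1 modulated gene of 26 in the lysosome and autophagy list (3.85%, against 1.89% of all genes). Of that list 23 were positive with a median of 0.13, while 44.1% of all genes were positive. ITGA2, the collagen-binding integrin subunit (0.68), and GREM1, a BMP antagonist (0.67), were the 1 riser each of the matrix and integrin list (4%) and the BMP-SMAD list (7.14%).

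**Figure D2:**
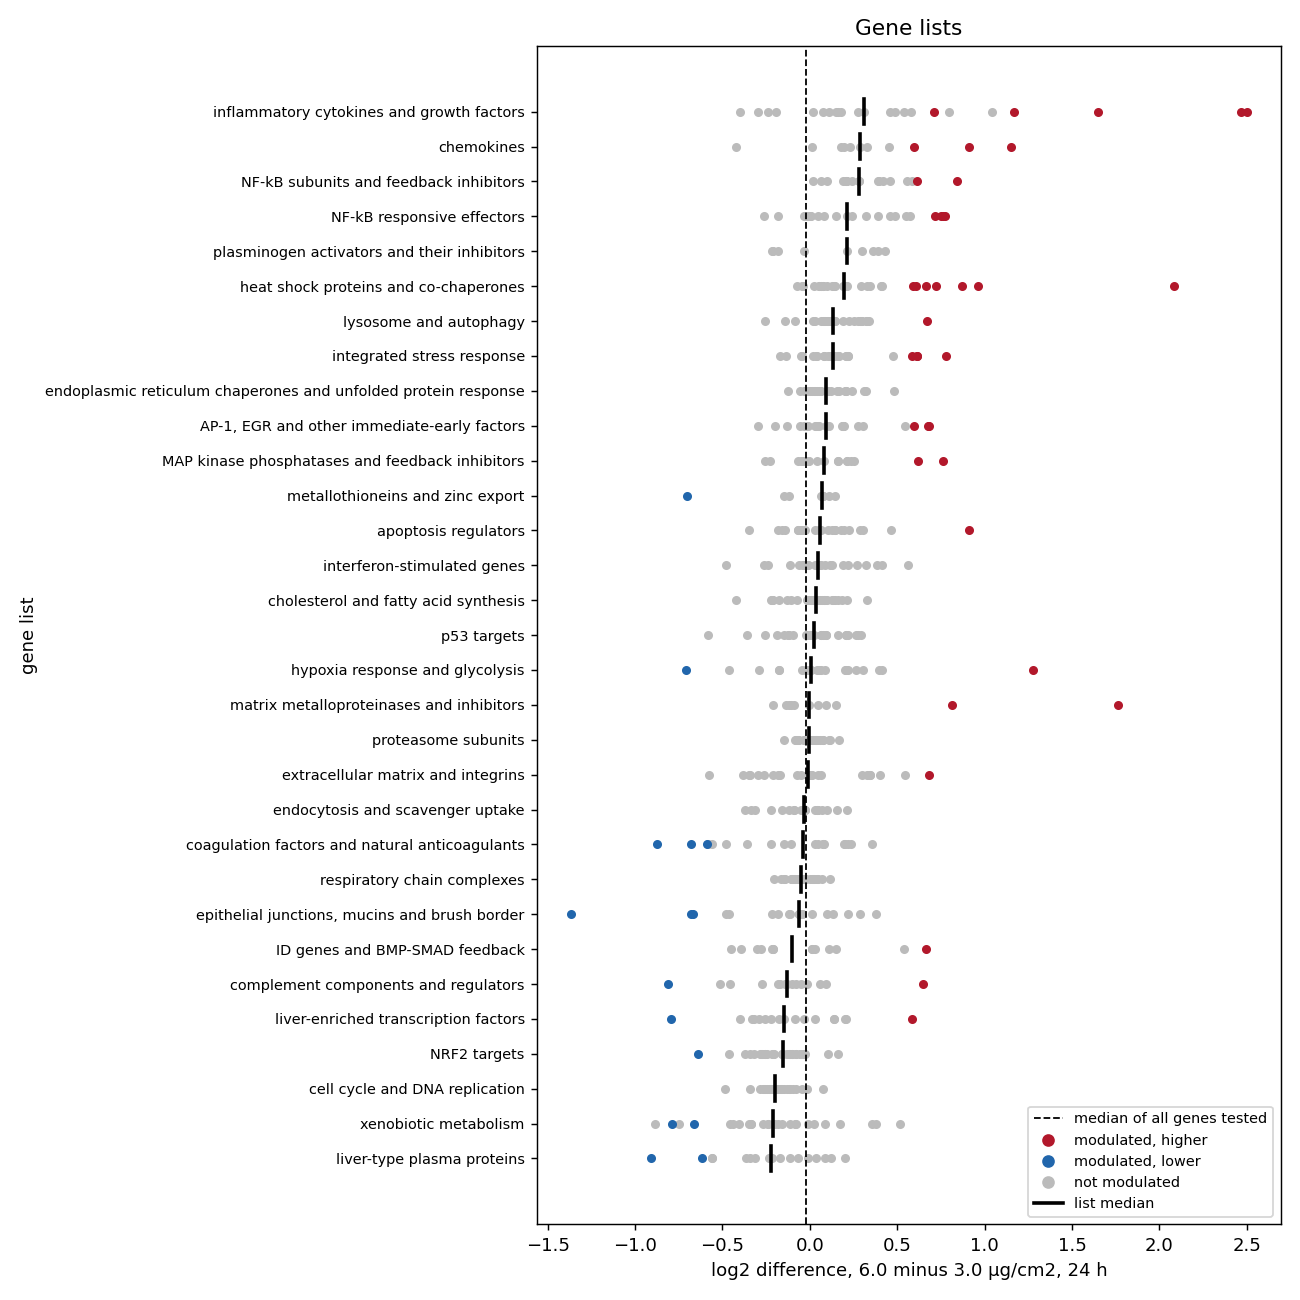
Log2 difference, 6.0 minus 3.0 μg/cm2 at 24 h, of each gene tested in the gene lists. Red and blue points are genes modulated higher and lower, gray points those not modulated, black bars list medians, and the dashed line is the median of all genes tested, −0.02. List medians run from −0.22 for the liver-type plasma proteins to 0.31 for the inflammatory cytokines.

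Of the 12 genes with the largest decreases, LGALS2 was the 1 that was also modulated on the deposited median intensities, which are not corrected for background. LGALS2, a galectin of epithelial cells (probe A_23_P120902), had levels of 47.1%, 59.5% and 56.2% at 3.0 μg/cm2 and of 20.8%, 26.8% and 18.0% at 6.0 μg/cm2. Control cells had 155% to 182%, so that the level was lower at each higher dose, without overlap. The difference was −1.33 (SE 0.158, limma adjusted p = 0.00841). LGALS2 lost its call with the t-test of the methods and with no filter on dim probes, as did DCDC1, EDN3, NCF1, NPY2R, ST6GALNAC1 and VIL1, while the other 5 of the 12 were called in both. Of the 12 genes with the largest increases, CLDN14 and IL1RL1 lost theirs in both. VIL1, the villin of epithelial brush borders, was at least 2.28-fold lower at 6.0 μg/cm2, where none of its arrays was well above background (limma adjusted p = 0.019). NPY2R, a neuropeptide Y receptor, was at least 2.37-fold lower (limma adjusted p = 0.00879), and ATP2C2, a Golgi calcium pump, at least 2.06-fold lower (limma adjusted p = 0.0039). Control cells had higher levels of these 3 genes than the cells at 3.0 μg/cm2, with no overlap. DCDC1 was at least 1.42-fold lower, and its brighter probe fell by 0.89. TLE1, a Groucho-type corepressor, was at least 1.42-fold lower on 1 probe, but its 2 other probes differed by −0.10 and 0.01 and were not modulated.

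HABP2, a hyaluronan-binding serine protease, fell by 1.51, EDN3, the peptide endothelin 3, by 1.23, ST6GALNAC1, which makes sialyl-Tn antigen on mucins, by 1.15, and SPACA4, an Ly6 family protein, by 1.07. At 6.0 μg/cm2, HABP2 was well above background on 1 of 3 arrays, and EDN3 and ST6GALNAC1 each on 2 of 3. NCF1, a subunit of the phagocyte NADPH oxidase, fell by 1.12 (SE 0.22, limma adjusted p = 0.0302) with a wide spread at 3.0 μg/cm2 (20.8%, 19.0% and 11.3%), and its probe may share signal with the NCF1 pseudogenes. H2AC16, a histone gene of a family with near-identical members, fell by 1.1, with 6.43% to 7.29% at 3.0 μg/cm2 and 2.98% to 3.56% at 6.0 μg/cm2. With normexp background correction, DCDC1 (0.08), TLE1 (0.16), HABP2 (0.05), VIL1 (0.07), NPY2R (0.08), ST6GALNAC1 (0.01), ATP2C2 (0.08) and SPACA4 (0.07) had differences of the opposite sign, and none of the 12 was called. Among these 12 genes, DCDC1, EDN3, NCF1, ST6GALNAC1 and VIL1 were not called in at least 1 of the fits that left out an array. DCDC1 lost it without 3.0 μg/cm2 replicate 2 (adjusted p = 0.0518). EDN3 lost it without 6.0 μg/cm2 replicate 3 or any of the 3.0 μg/cm2 replicates, ST6GALNAC1 without replicate 2 or 3 of either dose, and VIL1 without 3.0 μg/cm2 replicate 2 or 3 or 6.0 μg/cm2 replicate 1 or 2, with adjusted p of up to 0.0632, 0.0744 and 0.0638. NCF1 kept it in 1 of the 6 fits, that without 3.0 μg/cm2 replicate 3, with an adjusted p of up to 0.101 in the others. With the replicate block ST6GALNAC1 also missed the threshold (adjusted p = 0.0551).

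The liver-type plasma proteins had the lowest median of the gene lists, −0.22, with 0 of 18 genes higher, 2 lower and 4 positive. APOH, a phospholipid-binding glycoprotein, had levels of 138%, 148% and 144% at 3.0 μg/cm2 and of 76.9%, 84.3% and 68.5% at 6.0 μg/cm2, against 291% to 323% in control cells. It fell by 0.91 (SE 0.0828, limma adjusted p = 0.00452), and AMBP, the precursor of bikunin, by 0.62 (limma adjusted p = 0.0116). AMBP lost its call without 3.0 μg/cm2 replicate 2 or 3 or 6.0 μg/cm2 replicate 1 (adjusted p of up to 0.0529), and with the array median or the spike-ins as the scale. With normexp background correction the list median was 0.11. FGL1, a fibrinogen-like hepatokine, and ITIH2 both differed by −0.56, under the fold change threshold.

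Coagulation factors and natural anticoagulants had 3 of 20 genes lower and 0 higher. FGB, the fibrinogen beta chain, had levels of 48.2%, 56.5% and 58.2% at 3.0 μg/cm2 and of 33.8%, 34.2% and 33.3% at 6.0 μg/cm2, against 103% to 128% in control cells, and fell by 0.68 (SE 0.0789, limma adjusted p = 0.00767). The other fibrinogen chains, FGG and FGA, differed by −0.56 and −0.48 (limma adjusted p = 0.0107 and 0.00741) without reaching the fold change threshold on their brightest probes. The 2 dimmer probes of FGA fell by 0.62 and 0.73 (limma adjusted p = 0.0275 and 0.00397). F7, the factor that starts the extrinsic pathway, fell by 0.87, and PROC, the anticoagulant protein C, by 0.59. F7 lost its call without 3.0 μg/cm2 replicate 2 (adjusted p = 0.057) and had a difference of 0.04 with normexp, and the fold change of PROC dropped under 1.5 without 3.0 μg/cm2 replicate 3 or 6.0 μg/cm2 replicate 1. FGB lost its call with spike-in scaling, and PROC with spike-in scaling, the array median and quantile normalization. The median of the list was −0.04, with 10 genes positive and 10 negative. None of 9 plasminogen activators and inhibitors was modulated, and PLAUR, the urokinase receptor, differed by 0.43 (limma adjusted p = 0.0102).

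Of 15 complement components and regulators, 12 were negative with a median of −0.13, 1 rose and 1 fell. The riser was CD55, a membrane-bound complement inhibitor. It had levels of 149%, 140% and 152% at 3.0 μg/cm2 and of 232%, 223% and 235% at 6.0 μg/cm2, and rose by 0.65 (limma adjusted p = 0.00367). Among 17 liver-enriched transcription factors, NR1H4, the bile acid receptor FXR, fell by 0.79 and CEBPB rose. NR1H4 lost its call without any of the 3.0 μg/cm2 replicates or without 6.0 μg/cm2 replicate 3 (adjusted p of up to 0.0842).

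Of the listed genes of epithelial surface structures, 3 of 21 fell, VIL1, CLDN2 and MUC5B, and 0 rose. The claudins CLDN14, which rose by 1.21, and CLDN10, with a fitted difference of −0.70, are not in that list. CLDN2, a cation-pore claudin, had levels of 211%, 193% and 239% at 3.0 μg/cm2 and of 130%, 132% and 138% at 6.0 μg/cm2 (difference −0.68, limma adjusted p = 0.00919), and lost its call with spike-in scaling. MUC5B, a gel-forming mucin, differed by −0.67, and lost its call without any of the 3.0 μg/cm2 replicates, without 6.0 μg/cm2 replicate 3 (adjusted p of up to 0.0682) and with spike-in scaling. CDH1, E-cadherin, differed by −0.46 and CGN, cingulin, by −0.48, under the fold change threshold. RTKN2, the 1 modulated gene of 6 alveolar type 1 markers, fell by 0.84 (limma adjusted p = 0.00741), with 6.09% to 6.63% at 3.0 μg/cm2 and 3.32% to 4.12% at 6.0 μg/cm2.

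Most NRF2 targets, genes of antioxidant defence, had small negative differences. Of 32 tested, 30 were negative and the median was −0.16, but with spike-in scaling 18 were negative. GPX2, an epithelial glutathione peroxidase, was the 1 modulated gene (3.12%, against 1.89% of all genes). It fell from 1750%, 1860% and 2130% at 3.0 μg/cm2 to 1100%, 1270% and 1310% at 6.0 μg/cm2, a difference of −0.64 (SE 0.098, limma adjusted p = 0.0156). Its call was lost without 3.0 μg/cm2 replicate 2 or 3 or 6.0 μg/cm2 replicate 1 (adjusted p of up to 0.0579), and with spike-in scaling. GCLC, the rate-limiting enzyme of glutathione synthesis, differed by −0.46 and AKR1B10 by −0.37. Of 28 genes of xenobiotic metabolism 2 fell, FMO5, a flavin monooxygenase (−0.79, limma adjusted p = 0.0401), and UGT2B10, a glucuronosyltransferase (−0.66, limma adjusted p = 0.0261), with a list median of −0.21 that was −0.00013 with normexp. Of the fits that left out an array, both were called in 1, that without 6.0 μg/cm2 replicate 2, with adjusted p of up to 0.117 for FMO5 and 0.0913 for UGT2B10. FMO5 also lost its call with the replicate block (adjusted p = 0.0581) and UGT2B10 with spike-in scaling. Of 10 genes of metallothioneins and zinc export, 7 were positive, the median was 0.07 and 1 was modulated. MT1F, a metallothionein, fell by 0.70 (SE 0.0613, limma adjusted p = 0.00407), from 141%, 133% and 132% to 88.1%, 83.9% and 78.4%, and was not called with spike-in scaling.

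Of 32 cell cycle and DNA replication genes, 31 were negative with a median of −0.20, and 0 were modulated. E2F2, with the largest difference among them, differed by −0.48 (limma adjusted p = 0.0189), while MKI67 had −0.34 with overlapping arrays (limma adjusted p = 0.169) and MCM5 −0.28. With spike-in scaling 25 were negative and the median was −0.07. Neither proteasome subunits (0 of 28), respiratory chain subunits (0 of 28), cholesterol and fatty acid synthesis genes (0 of 30) nor endocytosis genes (0 of 20) were modulated. Of 25 hypoxia and glycolysis genes, HK2 rose and CA9, a carbonic anhydrase, fell by 0.71 (limma adjusted p = 0.0311), with a list median of 0.01. Of the fits that left out an array, CA9 was called in 1, that without 6.0 μg/cm2 replicate 2, with adjusted p of up to 0.105 in the others. It was not called with spike-in scaling and had a difference of 0.12 with normexp.

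At 72 h, the same contrast called more transcripts, mostly lower. Of 21611 tested, 1047 (4.84%) were modulated between the doses, 234 higher and 813 lower. The share of higher transcripts was 22.3%, and 34% with quantile normalization, 33.5% with the array median and 40% with spike-in scaling. Of the 363 transcripts modulated at 24 h, 299 were tested at 72 h and 235 (78.6%) differed in the same direction, against 58.59% of all transcripts tested at both times. The share was 154 of 188 for the lower and 81 of 111 for the higher transcripts. There were 118 transcripts modulated at both times, 32.51% of the 24 h list and 11.27% of the 72 h list, of which 91 were lower at both times, 21 higher at both times and 6 opposite. The 24 h and the 72 h contrasts share no array and no slide. At 72 h the arrays lay at mixed positions, and most arrays of the different doses were on separate slides. Slide therefore cannot be told apart from time, and at 72 h only in part from dose. LGALS2 had a difference of −1.96 at 72 h, with 54.0% to 54.9% at 3.0 μg/cm2 and 10.9% to 16.3% at 6.0 μg/cm2 (limma adjusted p = 0.0025). APOH fell by 1.21 and FGB by 1.44 at 72 h, and VIL1, not well above background at 6.0 μg/cm2, was at least 2.1-fold lower.

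The difference between both times was tested as an interaction, and 946 of 22507 transcripts tested (4.20%) passed the same thresholds, among them 117 of the 363. With spike-in scaling 45 transcripts passed. HSPA6 had a difference of 0.30 at 72 h (limma adjusted p = 0.17), with 4.17% to 5.82% at 3.0 μg/cm2 and 5.73% to 5.99% at 6.0 μg/cm2. Its difference between the doses was smaller at 72 h by 1.78 on the log2 scale (SE 0.199, limma adjusted p = 0.000816). IL6 and MMP1 were still modulated at 72 h, with differences of 0.65 and 0.79 (limma adjusted p = 0.0403 and 0.00561), smaller than at 24 h by 1.00 and 0.98 (limma adjusted p = 0.00755 and 0.00113). C11orf96 had 15.2% to 16.0% at 3.0 μg/cm2 and 19.6% to 22.3% at 6.0 μg/cm2 at 72 h, a difference of 0.42 that was under the fold change threshold. PTX3 and FOSL1 went the other way, with differences of 1.50 and 1.42 at 72 h (limma adjusted p = 0.00224 and 0.0021), larger than at 24 h by 0.73 and 0.82 (limma adjusted p = 0.00936 and 0.00665). The cell cycle list had a median of −0.20 at 24 h and of 0.20 at 72 h.

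Of the 6 transcripts modulated in opposite directions, 4 had a gene symbol and were chosen after their values were seen. TXNIP, an inhibitor of thioredoxin and of glucose uptake, had 3.39%, 2.86% and 2.44% at 3.0 μg/cm2 and 7.58%, 7.10% and 5.35% at 6.0 μg/cm2 at 24 h. At 6.0 against 3.0 μg/cm2 it was higher by 1.20 at 24 h and lower by 0.75 at 72 h (limma adjusted p = 0.012 and 0.0156). Between the same doses, CRYAB was higher by 0.72 at 24 h and lower by 0.82 at 72 h. TRIM31, a ubiquitin ligase, was higher by 0.67 at 24 h and lower by 1.16 at 72 h. CLDN10, a claudin not well above background at 6.0 μg/cm2 at 24 h, was at least 1.62-fold lower at 24 h. At 72 h it was higher by 0.83. The 24 h difference of CLDN10 was 0.13 with normexp, the opposite sign. The difference between times passed the test for all 4 (limma adjusted p = 0.001, 0.00207, 0.000483 and 0.0011).

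**Figure D3:**
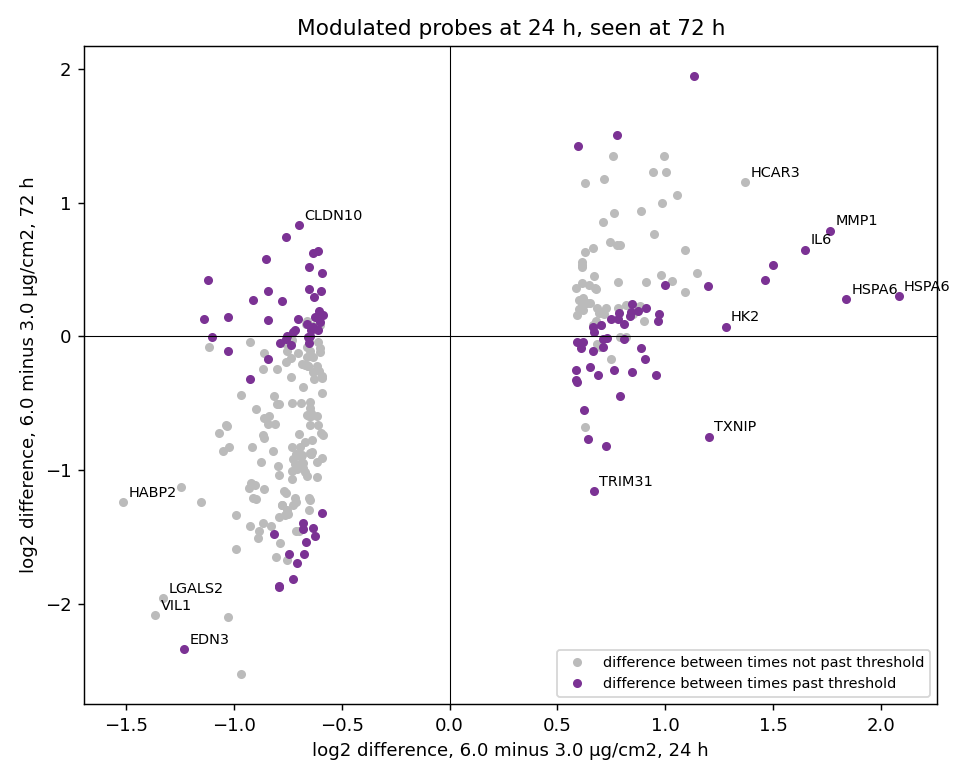
Log2 difference, 6.0 minus 3.0 μg/cm2, at 24 h (x axis) and at 72 h (y axis) of the modulated transcripts at 24 h that were tested at 72 h, 299 points. Purple points passed the test of the difference between times. Transcripts not above background in a group are plotted at their fitted difference. HSPA6 lies at the right near 0 on the y axis, LGALS2, VIL1 and EDN3 at the lower left, and TXNIP and TRIM31 are higher at 24 h and lower at 72 h.

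Positions 3 and 2 were also compared on another set of slides, where they held cultures at 0.1 μg/cm2 and at 1.0 μg/cm2. No transcript of 22257 tested (0%) was modulated there by limma, 2734 had an unadjusted p under 0.05, and the t-test of the methods also called 0. Without 0.1 μg/cm2 replicate 3, 1734 transcripts were modulated. The 75th percentile of this array lay 2.67 below its spike-ins on the log2 scale, against 4.48 and 4.51 for the other arrays at 0.1 μg/cm2. In that fit 7.68% of all transcripts tested were called, and of the 363 modulated ones 316 were tested, 45 were called and 23 of these had the sign they had between 6.0 and 3.0 μg/cm2. Of the genes described above that were called in that fit, NCF1 differed by −1.03, VIL1 by −0.67, ST6GALNAC1 by −0.71, NR1H4 by −0.73, FMO5 by −0.76, ITIH2 by −0.71 and CA9 by −0.65, the same sign as between 6.0 and 3.0 μg/cm2. HK2, TXNIP, TRIM31 and ICAM1 differed by −0.67, −1.20, −0.73 and −0.68, the opposite sign. HSPA6, MMP1 and IL6 differed by −0.39, −0.55 and 0.04 and were not called. Others that were not called had the same sign as between the doses, such as HABP2 (−0.55), CLDN2 (−0.57), EDN3 (−0.46), F7 (−0.37), FGA (−0.41), FGG (−0.34), FOSL1 (0.52) and HSPB8 (0.47). CD55 (−0.54), CRYAB (−0.47) and TRAF1 (−0.53) were not called either and had the opposite sign. Since position and dose both differ in that comparison too, the part of array position in any of these results was not tested.

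The calls depended on how bright a transcript was. The median processed intensity was 402 over all transcripts tested, 89.0 over the higher and 66.7 over the lower modulated ones. Of the 163 modulated transcripts with a mean processed intensity of at least 100, 90 were also modulated on the deposited median intensities without background correction, and 20 with normexp background correction. Of the 200 dimmer ones, 1 and 0 were. All 163 brighter transcripts kept their sign with normexp, against 122 of the 200 dimmer ones, and 361 of the 363 kept it on the median intensities. The 20 that passed with normexp included HSPA6, IL6, MMP1, PLIN2, C11orf96, HSPA1A, HSPA1B, SOD2, HRK and CD68 among the higher and MT1F among the lower. Of the 54 modulated genes of the gene lists, 25 passed on the median intensities and 8 with normexp.

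**Figure D4:**
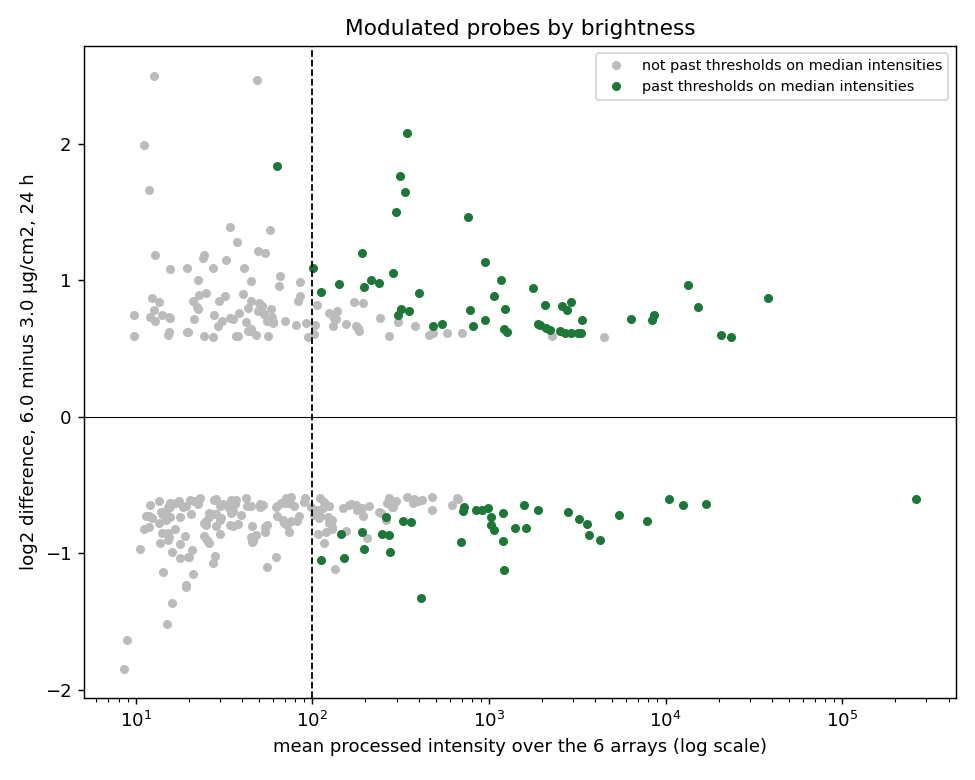
Log2 difference, 6.0 minus 3.0 μg/cm2 at 24 h, of the 363 modulated transcripts against their mean processed intensity over the 6 arrays, on a log scale, with a dashed line at 100. Green points also passed the thresholds on the deposited median intensities. To the left of the line, 1 of 200 did, to the right 90 of 163.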

How the data were processed

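The authors deposited the scanner output of Agilent Feature Extraction (versions 10.10.1.1 and 11.0.1.1 in the submitters' processing notes), whose processed signal is an intensity corrected for background but not normalized between arrays, with median spot and background intensities. The series matrix they deposited holds these same median intensities. Log2 processed signals minus the 75th percentile of each array were taken in R 4.3.3, with statmod 1.5.0, limma 3.58.1 and the package data.table (1.17.8). Control spots and the 0.38% of spots marked non-uniform or outliers were dropped, and replicate spots were averaged, giving 34127 probes. Their symbols came from the accession for 25771 probes and from the study's supplementary list for 363, and 7993 had none. Transcripts that were well above background on all arrays of either group were tested with lmFit and eBayes, without a block.

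Where no array of a group had a probe well above background, a bound is given ("at least"). It sets the mean of the brighter group against a floor on each dimmer array, the lowest value of its probes above background, or the probe's own value if larger. A bound concerns the group means and does not include the spread between arrays. An adjusted p printed beside a bound is that of the fitted difference and does not test the bound. Such a transcript entered the test only through its brighter group. For NPY2R and CLDN10 at 24 h the probe's own values were larger than the floor, so that the fitted difference is given. A gene list uses the brightest probe per gene. Genes described in full are the 12 higher and 12 lower with the largest fitted differences, the modulated genes of each list with up to 3 others, the study's inflammatory effectors, and the 3 largest differences between times in each direction. A few of these genes are not reported here. The replicate number is the slide at 24 h, and same-numbered arrays deviated together (correlation 0.252 to 0.291, against −0.189 to −0.0904 for different numbers), so that the slides pair the arrays. The members and gene lists were chosen with earlier results of these data known. Normexp was run on median intensities, as a mean-intensity column was not used here. Alternatives were the t-test of the methods, thresholds, background corrections, scalings, filters, blocks, genes in place of probes and leaving out each array. The tests were tested on simulated data.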

Additional observations from a re-analysis of the deposited data

Results flagged for a closer look

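For the following genes the difference between 6.0 and 3.0 μg/cm2 was not the same at 24 h and at 72 h by limma's test of that difference (adjusted p under 0.05). The values are the 72 h minus the 24 h log2 difference as fitted, and time cannot be told apart from slide in them. CSF3 and IL1RL1 were not well above background at 3.0 μg/cm2 at 24 h or in either group at 72 h, ATP2C2 at 6.0 μg/cm2 at 24 h, and EDN3 at 6.0 μg/cm2 at 72 h, so that their values are neither exact nor bounds. Among the genes higher at 6.0 μg/cm2 at 24 h, the fitted difference was smaller at 72 h for CSF3 (−2.33), HSPA6 (−1.78), IL1RL1 (−1.50), HK2 (−1.21), C11orf96 (−1.05), IL6 (−1.0), MMP1 (−0.98) and PLIN2 (−0.96). Among the genes lower at 24 h, EDN3 had a larger fitted difference at 72 h (−1.11), while ATP2C2 (1.27) and H2AC16 (1.1) had no difference past the thresholds at 72 h.

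Over all transcripts, TLE1 (2.79), MACF1 (1.90) and C4BPB (1.76) were named for their positive fitted values, which have no order where a group is not above background. TLE1 was well above background on none of the arrays at 6.0 μg/cm2 at 24 h and at 3.0 μg/cm2 at 72 h, and its 2 other probes were not modulated at 24 h. C4BPB, a chain of the complement inhibitor C4b-binding protein, had a difference of −0.01 at 24 h and was at least 2.61-fold higher at 6.0 μg/cm2 at 72 h (limma adjusted p = 0.021). PRR23B (−4.00), FAM3B (−2.40) and FAM47C (−2.36) were named for their negative fitted values. They were not well above background on any of the 24 h arrays, so that their 24 h differences were not measured. At 72 h PRR23B was at least 4.33-fold and FAM47C at least 1.66-fold lower at 6.0 μg/cm2 (limma adjusted p = 0.0197 and 0.00744), and FAM3B did not pass the test (limma adjusted p = 0.134).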

How the results depend on the processing

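Of 363 modulated transcripts at 24 h (154 higher, 209 lower), the t-test of the methods called 173 (89 and 84), normexp 20 (17 and 3), the series matrix values 94 (55 and 39), no filter on dim probes 171 (86 and 85), and a fold of at least 2 gave 51 (31 and 20). The adjusted p alone gave 2010 (817 and 1193), and spike-in scaling 467 with 318 higher. Without an array the count was 230 to 406, with 115 to 148 higher and 115 to 274 lower. At 72 h the 1047 became 3584 with the adjusted p alone, 263 at a fold of 2, 383 with normexp, 533 with spike-in scaling and 475 with the series matrix values, and 754 to 1200 without an array. The 946 differences between times became 2783, 223, 297, 45 and 373 under the same alternatives, and 793 to 1048 without an array. Positions 3 and 2 gave 3 calls with spike-in scaling and 1 to 1734 without an array. The causes of these shifts were not tested. The other alternatives kept each total within 1.5 times. The count of 234 higher transcripts at 72 h became 150 with no filter, 138 with 1 probe per gene symbol, 98 with the series matrix values, 77 with normexp, 34 at a fold of 2, and 155 to 277 without an array. With the replicate block 355 transcripts were modulated at 24 h, 337 of them shared, 1149 at 72 h, and 1093 between times. It ended the calls of ST6GALNAC1, CCL5 and FMO5 and no other call of the 71 modulated genes chosen by rule. Of these 71, 46 were called with the t-test of the methods, which ended among others the calls of CCL5, CXCL8, EREG, TNFRSF9, DNAJB1, FOSL1, ITGA2, AMBP, F7, NR1H4, MUC5B, GPX2, FMO5, UGT2B10 and CA9, 41 with no filter, 65 with all 9 arrays at 24 h in the fit, 28 with the series matrix values and 10 with normexp. With normexp, the sign turned for DCDC1 (0.079), TLE1 (0.156), HABP2 (0.0549), VIL1 (0.0722), NPY2R (0.0775), ST6GALNAC1 (0.00819), ATP2C2 (0.0786), SPACA4 (0.0654), F7 (0.037) and CA9 (0.117) of the genes chosen by rule, and for CLDN10 (0.135). None of the other alternatives turned the sign of a modulated gene chosen by rule. Of the 71, 46 were called in all 6 fits without an array. The number of arrays and the signal over background limit the precision.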
